A study of Mus musculus with 7 samples.

Results

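The genes described here are 10 immediate early transcription factors, Fos, Fosb, Jun, Junb, Jund, Egr1, Egr2, Egr3, Ier2 and Atf3. They were chosen by name, but with earlier results of these data known. Of the 10, 8 have rows in the transcript tables, with 12 transcripts among 55404 and 8 genes among 16143. Fosb and Egr3 have no row and were not analysed here. Their levels were compared between EGFP-positive cells sorted from retinal explants of ICR mice, an outbred stock. All retinas were taken at embryonic day 17.5, electroporated with an EGFP plasmid together with either a control plasmid or a plasmid expressing a hairpin against Kmt2f, an alias of Setd1a, and cultured for 2 days. There were 3 control and 4 shKmt2f libraries, and EGFP was the only marker of the sort. The explants of both groups were trypsinized for the sort, and SMART-Seq v4 turned 1 ng of RNA into cDNA. The labels do not tell whether replicates are different animals or explants, and each p-value therefore speaks only of variation from library to library, possibly technical. In such bulk samples, fewer cells of a type and less RNA per cell cannot be told apart.

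Immediate early genes are transcribed within minutes of a stimulus from promoters that hold bound factors beforehand, and their mRNAs are short-lived. FOS proteins pair with JUN proteins through leucine zippers to form the AP-1 factor, EGR proteins bind GC-rich sites through zinc fingers, ATF3 is a leucine zipper protein of the stress response, and IER2 is a nuclear protein induced with them. In nervous tissue they are known as markers of recent activity, growth factor signalling and injury, and tissue dissociation is known to induce them. Setd1a encodes a methyltransferase of histone H3 lysine 4, a mark of active promoters.

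The promoters of Egr2, Fos, Jun and Junb are shown because these 4 genes had means 1.52 to 2.60 times higher in the shKmt2f libraries, and their promoters are where the early response acts. Egr1, with the largest ratio, 2.86, is not among the promoters shown, and its promoter was not analysed here. The 4 sequences were read from the RefSeq table for GRCm38.p6. Each holds 300 bases, most of them upstream of a RefSeq start, 5′ to 3′ on the strand of the gene. The Egr2 window is chr10:67537619-67537918 (plus strand), 1 of 5 listed for the gene. Its start is that of the Egr2 transcript of 2965 bases. The starts of the 2 shorter Egr2 transcripts have windows of their own, which overlap this one and also hold the CArG box. The others are chr12:85473640-85473939 for Fos (plus strand), chr4:95052173-95052472 for Jun (minus strand) and chr8:84978699-84978998 for Junb (minus strand). Capitals mark matches, on either strand, to the CRE-like TGACNTCA, the AP-1 site TGANTCA, the EGR site GCGNGGGCG, the ETS core CCGGAA, the TATA box TATAAA or the CArG box that serum response factor binds.
Egr2: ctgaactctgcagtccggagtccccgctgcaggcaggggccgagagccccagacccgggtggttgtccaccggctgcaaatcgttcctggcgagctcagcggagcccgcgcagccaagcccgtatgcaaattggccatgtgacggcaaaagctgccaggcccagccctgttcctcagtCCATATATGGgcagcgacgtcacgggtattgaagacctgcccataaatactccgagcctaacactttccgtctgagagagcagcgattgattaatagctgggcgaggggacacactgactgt
Fos: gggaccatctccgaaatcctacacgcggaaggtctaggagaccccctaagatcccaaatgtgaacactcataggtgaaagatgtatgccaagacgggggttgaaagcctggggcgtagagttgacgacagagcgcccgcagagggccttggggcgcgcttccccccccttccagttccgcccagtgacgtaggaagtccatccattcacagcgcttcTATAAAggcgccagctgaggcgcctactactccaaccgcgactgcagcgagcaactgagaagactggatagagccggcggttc
Jun: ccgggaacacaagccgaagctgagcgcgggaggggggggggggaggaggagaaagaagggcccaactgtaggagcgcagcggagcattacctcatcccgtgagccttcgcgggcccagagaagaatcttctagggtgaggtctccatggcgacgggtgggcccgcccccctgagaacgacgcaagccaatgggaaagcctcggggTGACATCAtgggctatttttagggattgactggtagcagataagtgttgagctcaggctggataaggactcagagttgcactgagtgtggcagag
Junb: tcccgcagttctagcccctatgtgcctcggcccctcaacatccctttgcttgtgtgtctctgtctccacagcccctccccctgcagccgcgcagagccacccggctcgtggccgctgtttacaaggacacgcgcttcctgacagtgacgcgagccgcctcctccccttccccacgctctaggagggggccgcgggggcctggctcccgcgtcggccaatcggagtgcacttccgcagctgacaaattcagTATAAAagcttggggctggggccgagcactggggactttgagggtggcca

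The Egr2 window holds a CArG box from 72 bases before the start, a match found in 1.63% of the 32851 promoters of this length in the table. The Fos window holds a TATA box from 33 bases before its start, and the Junb window one at its RefSeq start (13.6% of promoters). The listed Junb transcript begins downstream of that RefSeq start, at 84978718, so the match lies upstream of where the transcript begins. The Jun window holds a CRE-like match, TGACATCA, from 45 bases before its start (8.83%). The windows shown for Egr2, Fos and Junb hold no match to the CRE-like letters. Sites that differ from the searched letters, or lie outside the windows, are not marked. None of these 4 windows matched the AP-1 site (7.81% of promoters), the EGR site (5.55%) or the ETS core (14.9%). Another Egr2 window, not shown, chr10:67537316-67537615, holds 3 ETS core matches, some of them overlapping, and 1 CArG box, CCTTTTTTGG. A match is a description of letters and not a binding site.

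The longest listed transcript of the targeted gene, Setd1a, was lower in every shKmt2f library. This transcript, of 6487 bases, stood between 0.764 and 0.959 TPM in the control and between 0.328 and 0.432 TPM in the shKmt2f libraries. All these values are under 1 TPM, a low level, and the sum over the gene is not reported here. TPM, a share of the transcripts of a library after scaling by length, keeps no read depth, and how many reads stand behind a value is unknown. Listed markers of retinal progenitors summed to between 1118 and 1442 TPM in control and between 953 and 1073 TPM in shKmt2f libraries, and those of photoreceptors to 437.3 to 545.1 and 679.8 to 907.4 TPM. Those of amacrine and ganglion cells summed to 74.8 to 90.3 and 100.9 to 107.0 TPM. Otx2 made up most of the photoreceptor sum, at 324 to 400 TPM in control and 492 to 632 TPM in shKmt2f libraries. Single markers did not all move as their sums did. A positive log2 fold change was found for 3 of 10 tested progenitor, 4 of 7 photoreceptor and 6 of 7 amacrine and ganglion markers. Of 10 microglial markers 1 has a row, C1qa, at no more than 1.54 TPM, and of 6 blood markers none has one. Of 8 endothelial markers 3 have rows, summing to 62.3 to 104.9 and 72.6 to 108.7 TPM. The sums for 3 listed pericyte and fibroblast markers were 0.738 to 1.46 and 1.90 to 2.55 TPM, and for 3 of pigment epithelium 3.801 to 4.42 and 5.67 to 7.62 TPM. Astrocyte and lens markers, 3 of each with rows, summed to at most 1.81 and 0.502 TPM. The part of these cell types in the results below was not tested.

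Of the 7 members with at least 1 TPM in 3 libraries, all had a higher mean in shKmt2f libraries (all but Jund with median-ratio scaling, with length-weighted sums and without control replicate 1), and Egr2 alone passed the threshold. Fos, Egr1, Jun, Junb and Ier2 lay between 1.31 and 2.86 times their control mean and did not pass, and Jund stood at nearly the same level in both groups. Atf3, with 1 listed transcript, was close to 0 throughout. A gene is called where limma's adjusted p over all 12456 genes tested is under 0.05. In shKmt2f libraries 10.4% of all genes tested were called higher and 3.69% lower, so 1 of 7 called higher and 0 of 7 lower is near that background. At an unadjusted limma p under 0.05, 6 of the 7 were higher, against 23.2% of all genes. These 6 are not independent of each other, because all rest on the same 7 libraries, which most members ordered in a similar way. The members were also chosen with earlier results of these data known. The median log2 fold change, on the scale of TPM + 1, was 0.73 over the 7 and 0.09 over all genes tested, of which 59.3% were positive. The group ranges were apart for 3 of the 7, Junb, Egr2 and Ier2, all higher in shKmt2f libraries, against 19.2% of all genes higher and 9.67% lower.

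**Figure D1:**
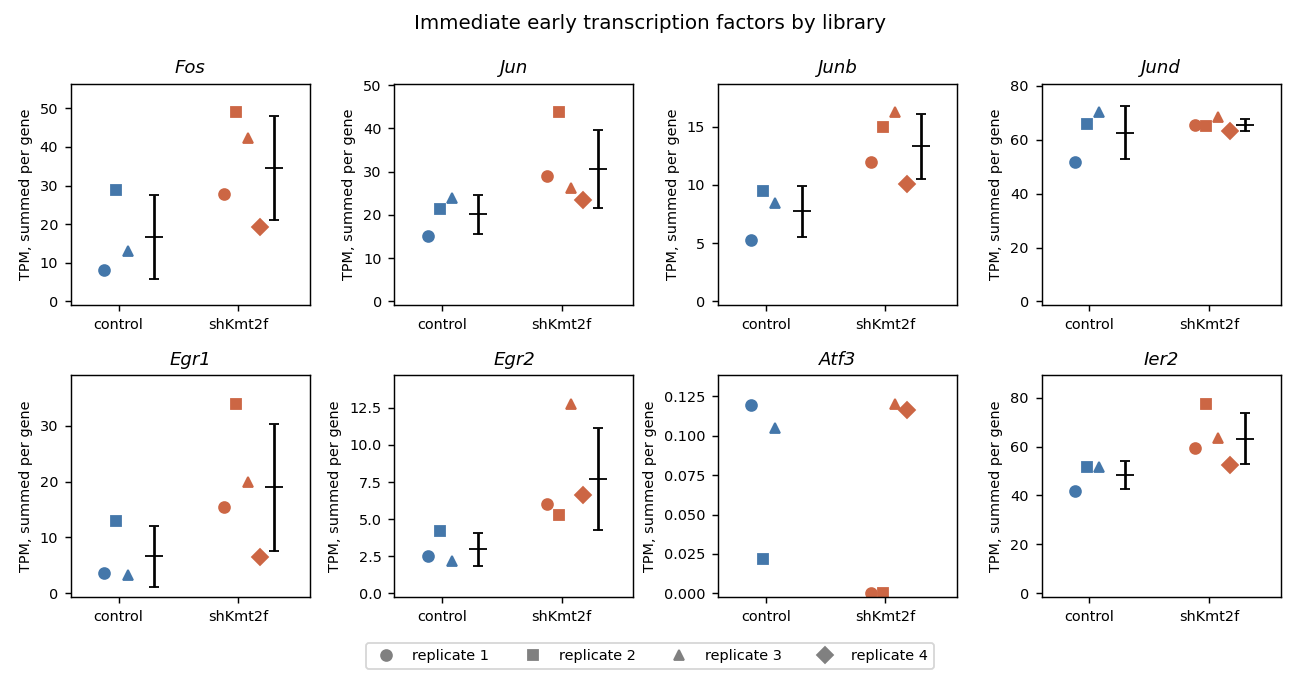
TPM summed per gene (vertical axis, from 0) in each control and shKmt2f library for the 8 genes with rows. Symbols are libraries, and black bars are the mean and SD of each group (3 and 4 libraries; no bar for Atf3, which is listed at 0 in 2 libraries). Control replicate 2 is the highest control library for Fos and Egr1, at 28.9 and 12.9 TPM, and shKmt2f replicate 4 the lowest shKmt2f library.

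Fos encodes the inducible partner of JUN in AP-1 and lies on chromosome 12 from 85473890 to 85477273 (GRCm38, plus strand; ENSMUSG00000021250). It stood at 8.08, 28.9 and 12.96 TPM in control replicates 1 to 3 and at 27.8, 49.0, 42.2 and 19.2 TPM in shKmt2f replicates 1 to 4. Control replicate 2 lay above shKmt2f replicates 1 and 4, so the groups overlap. The means were 16.6 ± 10.9 TPM (SD, n = 3) and 34.5 ± 13.5 TPM (SD, n = 4), with a log2 fold change of 1.10 (95% interval 0.09 to 2.11) that did not pass (limma adjusted p = 0.126). The exact permutation test over all 35 assignments of libraries to groups, two-sided, gave p = 0.143, where the smallest possible p is 0.0286. The spread of Fos within groups, an SD of 0.72 on the log2 scale, exceeded that of 97.1% of genes tested.

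Fos has 2 listed transcripts. The coding mRNA of 2108 bases stood at 6.41, 21.6 and 9.14 TPM in control and at 22.8, 36.7, 28.3 and 14.9 TPM in shKmt2f libraries. A processed transcript of 631 bases, of which all but 24 bases lie in exons of the mRNA, stood at 1.67, 7.25 and 3.82 TPM and at 5.01, 12.4, 13.98 and 4.30 TPM. In single libraries the processed transcript stood at 26.1% to 41.8% of the mRNA in control and at 22.0% to 49.5% in shKmt2f libraries, so the groups overlap. The ratio of shKmt2f to control means was 2.07 for the mRNA and 2.10 for the processed transcript, and how reads were shared between such overlapping transcripts cannot be read from TPM. Neither passed among single transcripts (limma adjusted p = 0.162 and 0.304). In the authors' deposited table the mRNA has an effect of 0.73 on the natural log scale with q = 0.264.

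Jun, the core AP-1 subunit (chromosome 4, 95049034 to 95052222, minus strand; ENSMUSG00000052684), is an intronless gene with 1 listed transcript. It stood at 15.02, 21.3 and 24.0 TPM in control and at 28.9, 43.8, 26.3 and 23.4 TPM in shKmt2f libraries. Control replicate 3 lay just above shKmt2f replicate 4, and every other shKmt2f library was above all controls. Means of 20.1 ± 4.61 (SD, n = 3) and 30.6 ± 9.10 TPM (SD, n = 4) gave a log2 fold change of 0.57 (95% interval 0.03 to 1.10) that did not pass (limma adjusted p = 0.135, exact permutation p = 0.0857). The authors' deposited table gives q = 0.261 for its transcript.

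Junb, a JUN paralog induced with Fos (chromosome 8, 84974484 to 84978718, minus strand; ENSMUSG00000052837), stood at 5.26, 9.50 and 8.43 TPM in control and at 12.01, 14.9, 16.3 and 10.1 TPM in shKmt2f libraries. The groups do not overlap, although shKmt2f replicate 4 was close to control replicate 2. The means were 7.73 ± 2.20 TPM (SD, n = 3) and 13.3 ± 2.80 TPM (SD, n = 4), a ratio of 1.72. The log2 fold change of 0.73 (95% interval 0.21 to 1.25) had limma adjusted p = 0.0650 and exact permutation p = 0.0571. In the authors' deposited table Junb has the smallest q of the 12 transcripts, 0.0718, with an effect of 0.47.

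Jund, the JUN paralog that is known to be expressed without a stimulus (chromosome 8, 70698949 to 70700616, plus strand; ENSMUSG00000071076), was the most abundant of the 8 genes in control libraries. It stood at 51.7, 65.9 and 70.3 TPM in control and at 65.6, 65.1, 68.5 and 63.2 TPM in shKmt2f libraries. All 4 shKmt2f values lie within the control range. The log2 fold change was 0.08 (95% interval -0.20 to 0.36; limma adjusted p = 0.711), and -0.046 with median-ratio scaling, so no direction is given. Its spread within groups exceeded that of 24.1% of genes tested, the smallest share of the 7.

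The mix of AP-1 transcripts differed between libraries accordingly. Jund made up 64.6%, 52.5% and 60.8% of the summed TPM of Fos, Jun, Junb and Jund in control replicates 1 to 3. In shKmt2f replicates 1 to 4 its share was 48.9%, 37.6%, 44.7% and 54.6%. The share of Fos was 10.1%, 23.0% and 11.2% in control and 20.7%, 28.4%, 27.6% and 16.6% in shKmt2f libraries. Control replicate 2 and shKmt2f replicate 4 overlap with the other group in both shares. The sum of the 4 genes was 80.0, 125.6 and 115.7 TPM in control and 134.3, 172.8, 153.2 and 115.8 TPM in shKmt2f libraries.

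Egr2, a zinc finger factor known for hindbrain patterning and myelination (chromosome 10, 67535475 to 67542188, plus strand; ENSMUSG00000037868), rose in shKmt2f libraries. It stood at 2.496, 4.20 and 2.17 TPM in control and at 6.04, 5.29, 12.8 and 6.62 TPM in shKmt2f libraries. The groups do not overlap, and shKmt2f replicate 3 was the highest. The means were 2.95 ± 1.09 TPM (SD, n = 3) and 7.68 ± 3.44 TPM (SD, n = 4), with a log2 fold change of 1.10 (95% interval 0.43 to 1.77), limma adjusted p = 0.0427 and exact permutation p = 0.0286, the smallest possible. The call lay near the threshold. It was lost with median-ratio scaling (adjusted p = 0.0578), with no filter (0.0605), with length-weighted sums (0.0587), after a GC correction (0.0627) and without any 1 library other than control replicate 2 (0.0651 to 0.135).

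Short transcripts carried much of the Egr2 sum. A transcript of 356 bases stood at 0.983, 2.13 and 1.27 TPM in control and at 2.64, 3.41, 7.45 and 3.69 TPM in shKmt2f libraries, with no overlap (exact permutation p = 0.0286, limma adjusted p = 0.0948 among transcripts). One of 427 bases stood between 0 and 1.61 TPM and between 0 and 2.62 TPM. The transcript of 2965 bases was listed at 0, 0.464 and 0.896 TPM in control and at 2.14, 1.87, 3.92 and 0.316 TPM in shKmt2f libraries, so that shKmt2f replicate 4 fell within the control range. None of the 10 tested transcripts of the members passed among 37024 transcripts tested, of which 1.44% were called higher. For the 3 Egr2 transcripts the authors' deposited table gives q between 0.480 and 0.974.

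Egr1, the most widely used EGR marker of neuronal activity (chromosome 18, 34859823 to 34864984, plus strand; ENSMUSG00000038418), had the widest spread. It stood at 3.62, 12.9 and 3.30 TPM in control and at 15.5, 33.9, 19.9 and 6.46 TPM in shKmt2f libraries. Control replicate 2 was above shKmt2f replicate 4, and the other 3 shKmt2f libraries were above all controls. The means of 6.62 ± 5.47 TPM (SD, n = 3) and 19.0 ± 11.4 TPM (SD, n = 4) differ by a ratio of 2.86, and the log2 fold change of 1.41 (95% interval 0.07 to 2.75) exceeds that of 98.9% of genes tested. It did not pass (limma adjusted p = 0.136, exact permutation p = 0.143), and its spread within groups exceeded that of 98.5% of genes tested. Nearly all of it came from the transcript of 3036 bases. The transcript of 4484 bases stood at no more than 0.757 TPM in any library.

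Ier2 (chromosome 8, 84661331 to 84662852, minus strand; ENSMUSG00000053560) is an intronless gene, and was next to Jund in abundance in both groups. It stood at 41.7, 51.6 and 51.8 TPM in control and at 59.6, 77.5, 63.4 and 52.6 TPM in shKmt2f libraries. The groups are apart by less than 1 TPM, between control replicate 3 and shKmt2f replicate 4. The means were 48.4 ± 5.76 TPM (SD, n = 3) and 63.3 ± 10.5 TPM (SD, n = 4), with a log2 fold change of 0.37 (95% interval 0.03 to 0.72) that did not pass (limma adjusted p = 0.127, exact permutation p = 0.0571).

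Atf3 (chromosome 1, 191170296 to 191218039, minus strand; ENSMUSG00000026628), which axon injury and cell stress are known to induce, was below the filter. Its 1 listed transcript stood at 0.120, 0.0218 and 0.105 TPM in control and at 0.120 and 0.116 TPM in shKmt2f replicates 3 and 4, and was listed at 0 in shKmt2f replicates 1 and 2. Both groups span much the same range (exact permutation p = 0.629), and TPM cannot show what level would have been detectable. The listed transcript starts at 191218039, upstream of the RefSeq promoter window for Atf3 at 191183284 to 191183583. A transcript from that RefSeq start has no row of its own, so these values may not give the level of the whole gene.

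Since TPM is scaled by length, levels can be set side by side across genes, though only roughly. Much of the Egr2 sum came from transcripts of 356 and 427 bases, and how such short lengths affect TPM was not tested. By control mean the order was Jund, Ier2, Jun, Fos, Junb, Egr1, Egr2 and Atf3. The ranges of neighbours in this order overlapped for Jund and Ier2, for Jun and Fos, for Fos and Junb, for Junb and Egr1 and for Egr1 and Egr2, while Ier2 was apart from Jun and Egr2 from Atf3. In shKmt2f libraries Fos, at 34.5 TPM, stood above Jun, at 30.6 TPM, and Egr1 above Junb, but these pairs overlapped there too.

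Most of the members ordered the libraries in a similar way. As the mean deviation of the 7 genes from their own mean on log2(TPM + 1), control replicate 1 was lowest at -0.82, followed by control replicate 3 at -0.49, shKmt2f replicate 4 at -0.11 and control replicate 2 at 0.00. The other shKmt2f libraries followed, replicate 1 at 0.22, replicate 3 at 0.55 and replicate 2 at 0.64. Control replicate 1 was the lowest library for 5 of the 7 genes and shKmt2f replicate 2 the highest for 4. Jund, with control replicate 3 highest, and Egr2, with shKmt2f replicate 3 highest and shKmt2f replicate 4 second, departed from this order.

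**Figure D2:**
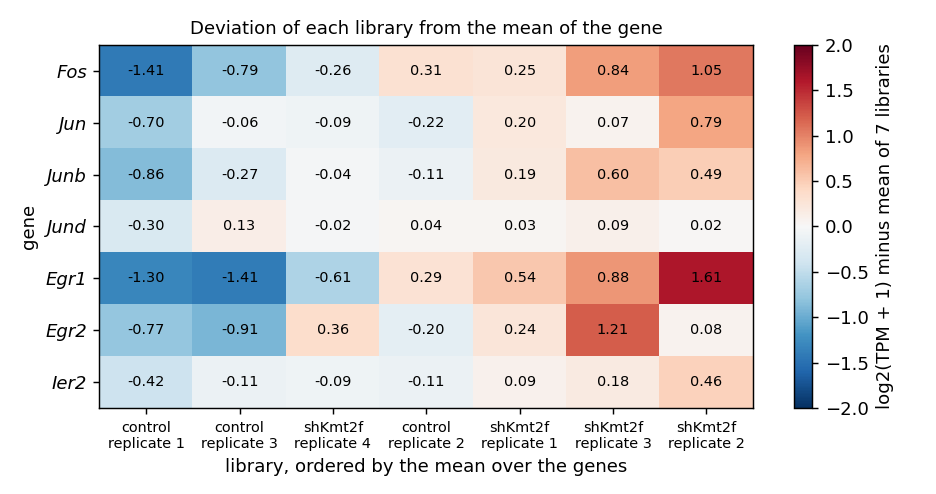
Deviation of each library (columns, ordered by the mean over the genes) from the mean of each gene (rows), in log2(TPM + 1). Blue is below and red above the mean of the gene. Control replicate 1 is below the mean for every gene, and control replicate 2 lies above shKmt2f replicate 4 for Fos, Jund and Egr1.

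Other properties of the libraries moved with this order in part. The slope of a library's deviations on transcript length was -0.154 per doubling in control replicate 1, -0.0251 and -0.0235 in control replicates 2 and 3, and between 0.0050 and 0.126 in shKmt2f libraries, highest in replicate 2. The slope on GC content, per 10 percentage points, was 0.262 and 0.434 in control replicates 1 and 3, -0.0486 in control replicate 2 and between -0.191 and -0.129 in shKmt2f libraries. Pseudogenes took 30.9% of the TPM of control replicate 1, 24.2% of that of shKmt2f replicate 2 and between 26.5% and 27.4% elsewhere. The sum of 15 heat shock genes with rows was 2156, 2992 and 2433 TPM in control and between 3027 and 3326 TPM in shKmt2f libraries. Their part in the members' levels was not tested. After correction for GC content and length, Junb, Egr2 and Ier2 were called higher (limma adjusted p = 0.0359, 0.0495 and 0.0400), where 4.93% of all genes were called higher.

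Without control replicate 2, Fos, Egr1, Egr2 and Junb were called higher (limma adjusted p = 0.0220, 0.0444, 0.0204 and 0.0360), but the share of all genes called higher was then also larger, at 19.7%. Without it Fos had a log2 fold change of 1.57 and Egr1 of 1.96. The group ranges of 5 members (Fos, Egr1, Egr2, Junb and Ier2) were then apart, all higher in shKmt2f libraries, where 30.4% of all genes were apart and higher. Without shKmt2f replicate 4 the ranges of Jun, Junb, Egr1, Egr2 and Ier2 were apart, against 21.7% of all genes. Without any 1 of the other 6 libraries none of the members was called, and between 1.16% and 2.83% of all genes were called higher. Median-ratio scaling, which lowered the median of all genes by 0.11 (a shift of -0.11), left log2 fold changes between -0.046 for Jund and 1.30 for Egr1, with none called, where 8.99% of all genes were called higher. In that scaling 57.6% of all calls were higher, against 73.8% without it.

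**Figure D3:**
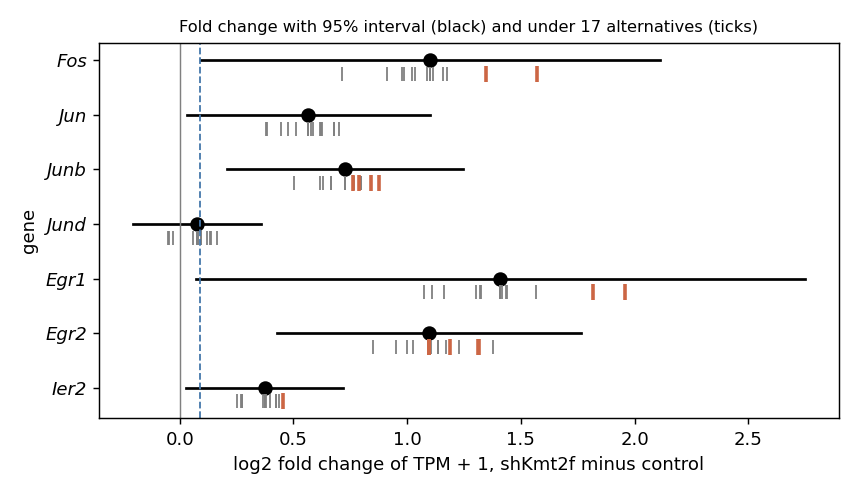
Log2 fold change of TPM + 1, shKmt2f minus control, for the 7 genes tested, with its 95% interval from limma (black) and its value under 17 alternatives (ticks, orange where called). The dashed line is the median of all genes tested, 0.09. Only Egr2 is called in the fit shown in black, and the interval of Jund alone includes 0.

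The kinases and factors that act on these promoters were mostly measured at moderate levels. Of 28 tested genes of the MAP kinase cascades, 5 rose and 0 fell, with a median log2 fold change of 0.24. Beside this and the list counts below, 10.4% of all genes tested were called higher and 3.69% lower. They include Rps6ka5, a kinase that phosphorylates histone H3 and CREB (3.36 ± 0.114 to 6.18 ± 1.09 TPM, limma adjusted p = 0.0305), Braf (4.81 ± 1.13 to 8.44 ± 0.871 TPM) and Map2k6 (5.36 ± 1.33 to 9.56 ± 1.01 TPM). Without control replicate 2 the rises numbered 7, without shKmt2f replicate 3 they numbered 1, and without any 1 of the other 5 libraries 0. In these fits 19.7%, 2.83% and 1.16% to 2.45% of all genes were called higher. After the GC and length correction 3 rose and 3 fell, with Rps6ka5 and Braf no longer called. Of all 12456 genes 614 were then called higher and 701 lower. Of 9 tested genes of serum response factor, ETS factors and cofactors none passed, also not after the GC and length correction. Without control replicate 2, 1 of them rose. Among them Elk4 stood at 23.2 ± 4.94 and 21.1 ± 2.40 TPM and Gabpa at 11.9 ± 9.46 and 27.8 ± 4.37 TPM.

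In the CREB family, whose members bind CRE sites such as those known in the Fos promoter, 3 of 9 rose and 0 fell, with a median of 0.19. The share of all genes called higher was 10.4%. Crem rose by a log2 fold change of 0.82, from 17.4 ± 1.62 to 31.4 ± 1.11 TPM (limma adjusted p = 0.0108), Creb1 from 6.24 ± 2.38 to 13.7 ± 2.12 TPM and Atf1 from 29.3 ± 6.98 to 47.97 ± 4.69 TPM. The count was again 3 after the GC and length correction, with median-ratio scaling and without control replicate 2. There 4.93%, 8.99% and 19.7% of all genes were called higher. Leaving out any other single library left only Crem. Of 14 tested leucine zipper partners of FOS, JUN and ATF3, 3 rose and 0 fell, with a median of 0.03. These were Cebpg (8.63 ± 1.602 to 15.3 ± 1.66 TPM), Atf2 (20.96 ± 6.57 to 38.4 ± 4.40 TPM), a CRE-binding partner of JUN, and Creb5 (6.59 ± 1.09 to 11.5 ± 1.59 TPM). None of these partners was called after the GC and length correction. Without shKmt2f replicate 3 the count was 2, without control replicate 2 it was 3, and without any 1 of the others 0. The shares of all genes called higher were 2.83%, 19.7% and 1.16% to 2.45%.

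Other immediate early genes differed by less than the members in the median. Of 40 listed, 35 have rows and 26 were tested, of which 4 rose and 0 fell, with a median log2 fold change of 0.13, against 0.09 over all genes tested. Among all genes tested 10.4% were called higher and 3.69% lower. Btg2, an antiproliferative gene, rose by a log2 fold change of 0.85, from 90.8 ± 14.2 to 163.3 ± 17.0 TPM (limma adjusted p = 0.0129). Plk2, a polo-like kinase, rose from 5.41 ± 0.279 to 11.04 ± 1.95 TPM, Klf10 from 39.4 ± 7.67 to 71.7 ± 10.98 TPM and Socs3, an inhibitor of cytokine signalling, from 8.82 ± 2.85 to 22.1 ± 6.83 TPM. Without control replicate 2 the rises numbered 7, without shKmt2f replicate 3 they numbered 3 and without shKmt2f replicate 4 they numbered 4. In these fits 19.7%, 2.83% and 2.45% of all genes were called higher. Leaving out control replicate 1 or 3, or shKmt2f replicate 1 or 2, left 1, where 1.16% to 1.78% of all genes were called higher. After the GC and length correction 6 rose and 1 fell, where 4.93% of all genes were called higher. Of the 26 tested, 19 had a positive log2 fold change, against 59.3% of all genes. Group ranges were apart for 8 higher and 1 lower, against 19.2% and 9.67% of all genes. Ier3 and Ier5, which a stimulus is known to induce with Fos, were at like levels in both groups. Ier3 stood at 4.32 ± 0.243 and 4.33 ± 0.301 TPM and Ier5 at 29.1 ± 5.65 and 28.7 ± 2.73 TPM. The activity-induced genes Arc and Nr4a1 were below the filter, Arc at 0.414 ± 0.397 and 0.404 ± 0.286 TPM and Nr4a1 at 0.953 ± 0.218 and 0.655 ± 0.188 TPM.

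**Figure D4:**
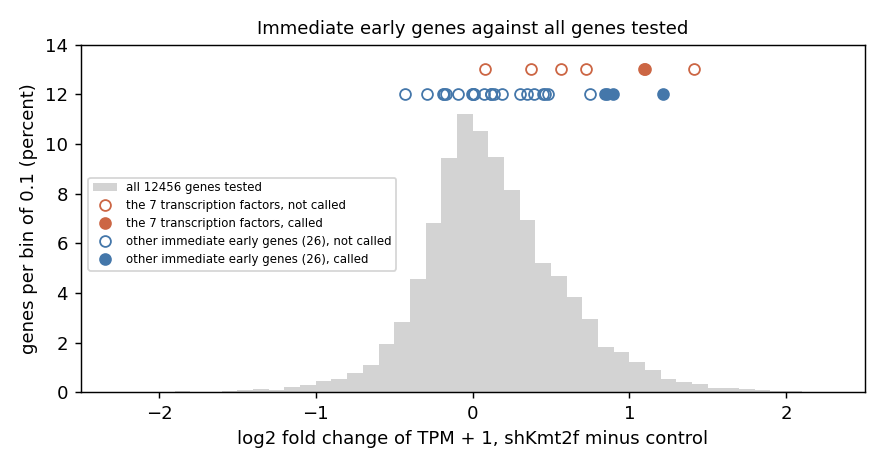
Log2 fold change of TPM + 1, shKmt2f minus control, for the 7 transcription factors (upper row of points) and 26 other immediate early genes (lower row), filled where called, above the distribution over all 12456 genes tested (grey, percent per bin of 0.1). The heights of the 2 rows carry no value. Fos, not called, and Egr2, called, coincide at 1.10. The other immediate early genes span -0.43 to 1.22.

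The counts for feedback and turnover genes stand beside 10.4% of all genes tested called higher and 3.69% lower. Of 16 tested MAP kinase phosphatases and feedback genes, Dusp16, a phosphatase of JNK and p38 kinases, rose from 7.78 ± 1.603 to 14.1 ± 1.45 TPM (limma adjusted p = 0.0249), and Dusp14 fell from 13.1 ± 3.01 to 7.32 ± 0.999 TPM (limma adjusted p = 0.0379). Their median was -0.09. Nab2, a co-repressor of EGR proteins and itself known as an EGR target, fell by a log2 fold change of -0.50 (2.35 ± 0.333 in control, 1.38 ± 0.142 TPM in shKmt2f libraries; limma adjusted p = 0.0495). It was the only call among 7 tested EGR co-repressors and targets, and was not called with any 1 library left out (adjusted p of 0.0753 to 0.123) or after the GC and length correction (0.0575). Of 13 tested genes of mRNA and protein turnover, Cnot1 and Cnot7, subunits of the main deadenylase, rose (36.8 ± 5.25 to 62.3 ± 12.3 and 165.9 ± 69.6 to 285.6 ± 20.8 TPM). Without any 1 of control replicates 1 and 3 and shKmt2f replicates 1, 2 and 4 these deadenylase calls were lost. The same holds for Dusp16 and Dusp14 without control replicate 1 or any 1 shKmt2f library, and for Dusp14 without control replicate 3. After the GC and length correction Dusp16 and Cnot7 were not called (adjusted p = 0.0539 and 0.109).

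Stress programs known to induce Atf3 differed from each other. Of 12 tested genes of the ATF4 and CHOP response 3 fell and 0 rose, with a median of 0.00. Among all genes tested 3.69% were called lower and 10.4% higher. Asns, asparagine synthetase, stood at 37.7 ± 3.41 TPM in control and fell to 19.5 ± 2.78 TPM, by a log2 fold change of -0.92 (limma adjusted p = 0.0129), Nupr1 from 52.4 ± 10.4 to 25.4 ± 2.46 TPM and Ddit4 from 8.75 ± 1.501 to 5.51 ± 0.665 TPM. With each library left out in turn, and after the GC and length correction, Ddit4 was not called and the other 2 falls were. Of 13 tested genes of the axon injury response 1 rose, Gap43, from 10.6 ± 2.46 to 22.1 ± 2.505 TPM, a growth cone protein that differentiating ganglion cells also express. That call was lost without control replicate 1 or 3. Of 11 tested heat shock genes Hspd1 and Dnaja1 rose (83.8 ± 20.4 to 122.7 ± 2.94 and 174.8 ± 38.1 to 246.2 ± 6.18 TPM), with a median over the 11 of 0.40 and 8 positive. Both calls were lost with median-ratio scaling, after the GC and length correction and on leaving out any 1 library but control replicate 2. In the absence of that library 6 heat shock genes were called higher, as were 19.7% of all genes.

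Among the genes with the library profile most like the mean of the 7 members were Pitrm1, Cyr61, Zfp451 and Tmem65, out of 9565 other genes with a mean of at least 5 TPM. Likeness was the root mean square difference between profiles centred on their own mean over the 7 libraries, and lay between 0.118 and 0.135 for these 4 on the log2 scale. Cyr61, itself on the list of other immediate early genes and encoding a matricellular protein, stood at 2.99, 5.43 and 3.62 TPM in control and at 5.68, 8.38, 9.74 and 5.87 TPM in shKmt2f libraries. Its groups do not overlap, and it did not pass (log2 fold change 0.75, limma adjusted p = 0.0654). Pitrm1, a mitochondrial peptidase gene, did not pass either (limma adjusted p = 0.0831), while Zfp451 and Tmem65 rose with log2 fold changes of 0.80 and 0.81 (limma adjusted p = 0.0300 and 0.0390). These genes were chosen for likeness to a profile that is higher in shKmt2f libraries. Their direction follows from that choice and is no separate result.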

How the data were processed

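Per the submitters' processing notes, reads were processed with Salmon 0.11.3 and sleuth 0.30.0 on GRCm38.p6. For every library the authors deposited a table in TPM of 55475 transcripts, of which 71 hold no TPM. Per the file headers a p-value, a q-value and an effect, b, stand beside them, the effect taken as natural log (ln) as sleuth gives it. These deposited columns were identical in all 7 tables.

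TPM was summed per gene. Genes reaching 1 TPM in 3 or more libraries entered limma (3.58.1; R 4.3.3) as log2(TPM + 1), with a trended robust prior, the group as only term and Benjamini-Hochberg adjustment over all genes. The same model was fitted to single transcripts. Exact permutation tests used all 35 assignments, on log2(TPM + 1) for genes and log2(TPM + 0.1) for transcripts. Alternatives were another pseudocount (0.1), filters (none, 5 TPM), median-ratio scaling, a plain prior, the replicate number as a block, loess corrections (span 0.3) for GC content and length, coding transcripts only, length-weighted sums and leaving out each library.

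Members and lists were chosen with earlier results of these data known. Named were all members, up to 3 passing genes per list with the smallest adjusted p (or, where none passed, the 2 of highest mean), the 5 genes of most similar profile, of which 1 is not reported here, and Setd1a. Socs3, Ier3, Ier5, Arc and Nr4a1 were named after their values were seen. Positions are from GENCODE M21, with the same version for 98.2% of transcripts. No other listed transcript matched a member at 90% identity over 100 bases (blastn 2.17.0).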

Additional observations from a re-analysis of the deposited data

How the results depend on the processing

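The calls among the members depended on the processing, while their direction did not, apart from Jund. Of the 7 genes tested, 1 was called higher. The number was 0 with median-ratio scaling, with no filter and with length-weighted sums, where 8.99%, 5.69% and 11.4% of all genes were called higher. It was 3 after the GC and length correction (4.93%), and between 0 and 4 when 1 library was left out (1.16% to 19.7%). The group ranges of 3 members were apart, 2 with median-ratio scaling and 3 to 5 when 1 library was left out. All were higher in shKmt2f libraries, where the share of all genes apart and higher was 19.2%, 16.0% and 20.3% to 30.4%. None was called lower under any of the 17 alternatives (the smallest adjusted p of Jund, the one member that changed sign, was 0.267). Over all genes the 1755 calls became between 283 and 3004 when 1 library was left out, 3004 without control replicate 2. Jund had a log2 fold change of -0.030 with length-weighted sums, -0.046 with median-ratio scaling and between -0.053 (without control replicate 1) and 0.17 (without control replicate 3) when 1 library was left out. Its transcript had -0.041 with median-ratio scaling and the same -0.053 to 0.17. The Egr2 transcript of 427 bases had between -0.28 (without control replicate 3) and 0.52 (without shKmt2f replicate 2), and -0.094 without shKmt2f replicate 4. The cause of these changes was not tested. With the replicate number as a block 3 members were called, Fos, Egr1 and Junb (limma adjusted p = 0.00995, 0.00463 and 0.0325), Egr2 was not (0.0664), and 8.38% of all genes were called higher. No control library carries number 4, so shKmt2f replicate 4 adds nothing to the fold changes of this fit. They equal the fold changes without that library (1.35 for Fos and 1.82 for Egr1). Same-numbered libraries deviated together only weakly (r between 0.0597 and 0.0793 across genes, which are not independent replicates). Such values over all genes cannot settle whether same-numbered libraries are paired, and the labels do not tell. Among the 24 passing genes that the text names from the gene lists, 4 passed with each library left out in turn (Btg2, Crem, Asns and Nupr1) and 13 after the GC and length correction.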
